A study of Homo sapiens with 4 samples.

Results

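The genes described here encode the proteins of the large (60S) subunit of the cytoplasmic ribosome: 45 genes, from RPL3 to RPL41 with the stalk genes RPLP0, RPLP1 and RPLP2, of the 14387 gene symbols that carried at least 1 site. A site was counted for a gene when its label held the exact symbol, so that pseudogenes, paralogs and readthrough genes with longer names were kept apart. The lists came from iCLIP, in which UV light cross-links RNA to protein and the protein is immunoprecipitated. The ends of the cDNAs are taken to mark the nucleotide where contact was made. The cells were wild-type MCF10A, an established line of breast epithelial cells grown in DMEM/F12 medium with horse serum, epidermal growth factor, insulin, hydrocortisone and cholera toxin. The groups were immunoprecipitation with PDCD4 antibody (2 replicates) and with control IgG (2 replicates), both from the same untreated line. Each deposited list pooled its 2 replicates, so there was 1 value per immunoprecipitation, no spread between replicates and no test between them. Intervals below are 95% intervals that cover counting error only, Wilson for shares and exact binomial for ratios.

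Large subunit proteins are made in the cytoplasm, imported into the nucleolus and assembled there onto ribosomal RNA. Their mRNAs are short, abundant and begin with a run of pyrimidines, the 5′ terminal oligopyrimidine (TOP) tract, through which their translation is tied to growth signals. Many of their introns carry small nucleolar RNAs (snoRNAs), which are cut out of the spliced intron and guide the chemical modification of ribosomal RNA. PDCD4 binds RNA and is known as an inhibitor of the helicase eIF4A. The question addressed by the comparison was which RNAs were attached to PDCD4 and not to control IgG.

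The score of a site is the number of cDNAs that ended there. In all, 158922 PDCD4 sites added up to 409308 cDNAs and 111361 IgG sites to 276139. All 8 breast epithelial markers examined, such as KRT5, ITGB4 and LAMB3, had PDCD4 sites, and the 10 markers of fibroblasts, endothelium and blood had no site in either list. No list gave RNA levels, so that more RNA of a gene and more contact per RNA cannot be told apart.

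The PDCD4 coding sites that scored 8 or more are printed here because they had the highest scores of the coding sites in these genes. Coordinates are those of GRCh38, each line runs 5′ to 3′ on the strand of the gene, and the capital letter is the listed position.
RPL35A, exon 3 of 5, chr3:197951232-197951261, plus strand: aaaattgaaggtgttTacgcccgagatgaa
RPL5, exon 6 of 8, chr1:92837508-92837537, plus strand: gtacatcggaagcacAtcatgggccagaat
RPL5, exon 6 of 8, chr1:92837496-92837525, plus strand: tttaatgcagaagtaCatcggaagcacatc
RPL29, exon 4 of 4, chr3:51993921-51993950, minus strand: cgatcgacttgcctaCattgcccaccccaa
RPL4, exon 3 of 10, chr15:66503129-66503158, minus strand: agactagtgctgagtCttggggtactggca
RPL4, exon 3 of 10, chr15:66503123-66503152, minus strand: gtgctgagtcttgggGtactggcagagctg
RPLP0, exon 3 of 8, chr12:120199442-120199471, minus strand: ttatccgaaatgtttCattgtgggagcaga
RPL19, exon 4 of 6, chr17:39203017-39203046, plus strand: aatgccagagaaggtCacatggatgaggag
Their scores in the PDCD4 list were 12 for RPL35A, 11 and 9 for the RPL5 sites, 10 for RPL29, 9 and 8 for the RPL4 sites, and 8 each for RPLP0 and RPL19. Of these positions, only the first of RPL4 was also in the IgG list, with a score of 3. The RPL5 windows overlap each other, and so do those of RPL4. The 30 nt after the site occurred 4 times in the genome for the first RPL5 site, 6 times for RPL29 and 2 times for both RPL4 sites. The assignment of reads to these positions is therefore uncertain.

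The sites at the start of embedded snoRNAs are printed because one of them had the highest score in these genes. Here the capitals are the annotated snoRNA and the lower-case letters the host intron before it.
SNORD18B in intron 4 of RPL4, chr15:66502078-66502107, minus strand: catttttatttaactgTCAAAATGATGAGA
SNORD36B in intron 4 of RPL7A, chr9:133350079-133350108, plus strand: cactgggggcgggctgTTGCAGTGATGTAA
SNORD36C in intron 6 of RPL7A, chr9:133350830-133350859, plus strand: atatttatctgaactttTGCCAATGATGGT
SNORA3B in intron 4 of RPL27A, chr11:8685422-8685451, plus strand: gaggaggcttatgctttGCCGAGACTAGAG
SNORD18C in intron 6 of RPL4, chr15:66501306-66501335, minus strand: gcaagtctactcagcttTTGTTATGATGAG
The PDCD4 site was the base 1 nt before the snoRNA for SNORD18B (score 15) and SNORD36B (score 10). It was 2 nt before the snoRNA for SNORD36C (score 8), SNORA3B (score 8) and SNORD18C (score 6).

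The sites at the transcript start with a score of at least 4 in either list are printed because they lie on the TOP tract. Capitals mark the transcribed bases of the annotated transcript.
RPLP2, chr11:809956-809985, plus strand: gtcggcgccttCCTTTTCCTCCCTGTCGCC
RPLP1, chr15:69452808-69452837, plus strand: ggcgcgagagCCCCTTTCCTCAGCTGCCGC
RPL5, chr1:92832025-92832054, plus strand: cgcaagggctgtggcCCTTTTCCCACCCCC
RPL38, chr17:74203667-74203696, plus strand: gaagtctcgttCTTTTTCGTCCTTTTCCCC
RPL27A, chr11:8682779-8682808, plus strand: ggcgaaggccttcCTTTTTCGTCTGGGCTG
The first 3 were PDCD4 sites with scores of 6, 6 and 4, and those of RPL38 and RPL27A were IgG sites with scores of 5 and 4.

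A PDCD4 site was found in all 45 genes and an IgG site in 42. The PDCD4 list is the deeper one, and the share of all gene symbols with a site in each list was not computed. The genes had 599 PDCD4 sites with 1767 cDNAs, which is 43.2 per 10000 cDNAs of that list. They had 186 IgG sites with 515 cDNAs, or 18.7 per 10000. These genes thus took a larger part of the PDCD4 list than of the IgG list. The log2 ratio of PDCD4 over IgG was 1.21 (interval 1.07 to 1.36). With the 3 largest genes, RPL5, RPL4 and RPL3, left out, it was 1.01, so that the difference did not rest on them alone. These 3 genes held 25.6% of the PDCD4 cDNAs and 14.8% of the IgG cDNAs. A score above 5, the threshold used in the study, was reached at 32 PDCD4 sites (5.34%) in 18 of the genes and at 3 IgG sites (1.61%). Over all sites of the lists, 1.48% of PDCD4 sites and 0.69% of IgG sites reached it, so the PDCD4 share was the higher one there too.

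Gene by gene, the log2 ratio was computed for genes with at least 10 cDNAs over both lists, with 1 added to each sum, and a gene was called when it was at least 1. Of the 45 genes, 41 reached this minimum and 23 of them (56.1%) were called, where 18.8% of the 9585 genes of any kind were called. The median log2 ratio was 1.16, against -0.08 over all genes. It was above 0 in 33 of the 41 genes and below 0 in 8, with RPL22 the only one at or below -1. Over all genes it was above 0 in 46.8% and at or below -1 in 18.1%. For 21 of the 45 genes the interval lay above 0, and RPL22 was the only one of the 45 whose interval lay below it. The share of all genes with an interval above 0 was not computed. With exonic sites alone, in these genes and in the totals of both lists, 15 of 37 genes were called (40.5%), where 20.5% of all genes were, and the log2 ratio of the sums was 0.75 (0.57 to 0.93). The ratio was thus smaller once each list was scaled to its own exonic sites.

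**Figure D1:**
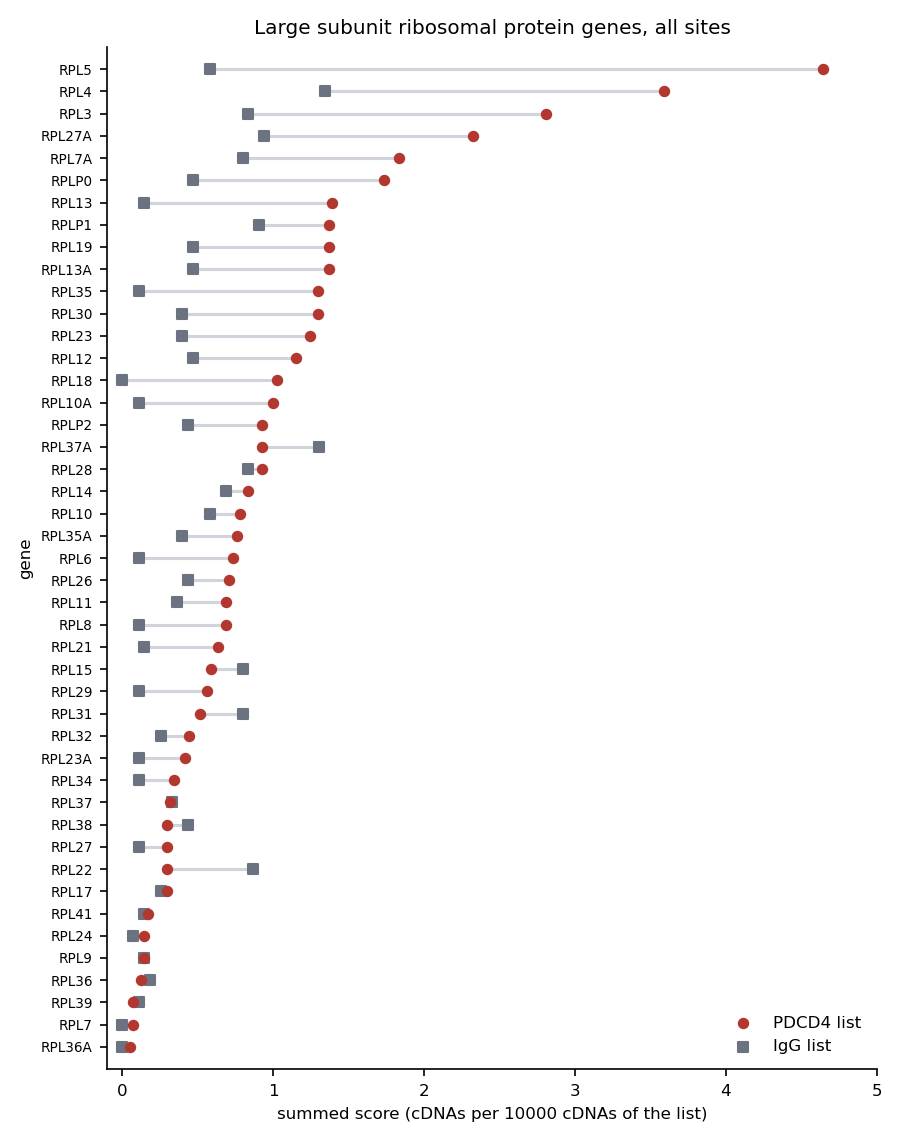
Summed score of each of the 45 genes, per 10000 cDNAs of the list, with circles for the PDCD4 list and squares for the IgG list, in order of the PDCD4 value. RPL5 has the highest PDCD4 value at 4.64, and RPL22, RPL37A, RPL31 and RPL15 are among the genes whose IgG value is the higher one.

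RPL5 and RPL11 bind the 5S ribosomal RNA and, when not in ribosomes, the p53 regulator MDM2. RPL5 had the largest PDCD4 sum, 190 cDNAs at 62 sites, against 16 at 7 sites in the IgG list, a log2 ratio of 2.92 (2.27 to 3.84). Of these, 164 PDCD4 cDNAs lay in coding sequence, which is 184 per kb of coding sequence and the highest density of all 45 genes. A single exon of 178 nt, exon 6, held 91 PDCD4 cDNAs at 29 sites, and 7 IgG cDNAs at 2. The last exon, of 159 nt, held 15 sites with 41 cDNAs, against 1 site with 3. RPL11, its partner, had 28 PDCD4 and 10 IgG cDNAs, a log2 ratio of 0.83 whose interval held 0 (-0.17 to 2.12). The partners therefore stood far apart in the PDCD4 list.

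RPL3 and RPL4 sit on the ribosomal RNA core and join early in assembly. RPL4 had 147 PDCD4 and 37 IgG cDNAs, a log2 ratio of 1.39 (0.89 to 1.98). Its PDCD4 sum was split between exons (86) and snoRNAs (49), with 12 in introns. RPL3 had 115 and 23 cDNAs, a log2 ratio of 1.71 (1.10 to 2.47), and its highest single score was only 5. RPL3 thus gathered its sum over 41 PDCD4 sites, none of which passed the threshold of the study.

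The stalk proteins RPLP0, RPLP1 and RPLP2 form the flexible arm that recruits translation factors, and RPL12 lies at its base. RPLP0 had 71 PDCD4 and 13 IgG cDNAs, a log2 ratio of 1.79 (1.02 to 2.86). RPLP1 had 56 and 25, a log2 ratio of 0.56 whose interval held 0 (-0.11 to 1.34). RPLP2, the binding partner of RPLP1, had 38 and 12, and RPL12 had 47 and 13, a log2 ratio of 1.21 (0.38 to 2.30). The first exon of RPLP1, 203 nt long, held 27 of its PDCD4 cDNAs and 3 IgG cDNAs.

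Several proteins surround the exit of the tunnel through which the nascent chain leaves. Of these, RPL35 had 53 PDCD4 cDNAs at 18 sites and 3 IgG cDNAs at 1 site, a log2 ratio of 3.19 (1.95 to 5.90). RPL19 had 56 and 13, all exonic in both lists, a log2 ratio of 1.46 (0.65 to 2.53). RPL31, which also lies at the exit, went the other way, with 21 and 22 cDNAs and a log2 ratio of -0.63 (-1.57 to 0.30). RPL10A, of the mobile L1 stalk, had 41 PDCD4 cDNAs and 3 IgG cDNAs at 1 site, a log2 ratio of 2.82 (1.56 to 5.54). For RPL35 and RPL10A the IgG value therefore rests on 1 site.

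Among the other genes with large sums, RPL27A had 95 PDCD4 and 26 IgG cDNAs, a log2 ratio of 1.26 (0.66 to 1.99), and 44 of the 95 lay at its snoRNAs. RPL7A had 75 and 22, a log2 ratio of 1.16 (0.50 to 1.96), with 38 exonic and 30 snoRNA cDNAs. RPL13 had 57 and 4, a log2 ratio of 2.97 (1.83 to 5.19), and all but 3 of the 57 were exonic. RPL13A, whose protein also acts outside the ribosome in translational silencing, had 56 and 13 cDNAs, a log2 ratio of 1.46 (0.65 to 2.53). RPL18 had the highest log2 ratio after the addition of 1 to each sum: it had 42 PDCD4 cDNAs at 15 sites and no IgG site was listed, so no fold is given. The other genes with no IgG site, RPL7 and RPL36A, had 1 PDCD4 site each, with 3 and 2 cDNAs. RPL35A, with the highest coding score, had 31 PDCD4 and 11 IgG cDNAs, a log2 ratio of 0.85 whose interval held 0 (-0.10 to 2.07).

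At the lower end stood RPL22, a protein that also binds viral and cellular RNAs outside the ribosome, with 12 PDCD4 and 24 IgG cDNAs, a log2 ratio of -1.51 (-2.70 to -0.51). Of its IgG cDNAs, 17 lay in introns. RPL38, known for its part in the translation of Hox mRNAs, had 12 in each list, a log2 ratio of -0.57. RPL36 had the same ratio, from 1 site with 5 cDNAs in each list. RPL37A had 38 PDCD4 and 36 IgG cDNAs (log2 ratio -0.49), and RPL15 had 24 and 22 (-0.45), all in its last exon. For RPL31, RPL36, RPL38, RPL37A and RPL15 the interval of the log2 ratio held 0. Since the PDCD4 list is the deeper one, equal sums give a ratio below 0.

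Sites were then placed on the transcripts of GENCODE release 44. Coding sequence held 364 of the 599 PDCD4 sites (60.8%, 56.8% to 64.6%) and introns 52 (8.68%, 6.68% to 11.2%). The rest lay in 3′UTRs (52), 5′UTRs (25), other exons (61) and snoRNAs (45). Coding sequence took 79 of the 186 IgG sites (42.5%, 35.6% to 49.7%) and introns took 35 (18.8%, 13.9% to 25.0%). The coding share was thus higher and the intron share lower in the PDCD4 list, with no overlap of the intervals in either case. In all other genes the coding share was 20.8% of PDCD4 sites and 9.67% of IgG sites, and the intron share 49.8% and 66.1%. When UTRs of any transcript were given precedence over coding sequence, the coding share of the PDCD4 sites in large subunit genes was 35.7%.

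For the next comparison each site was assigned to a snoRNA (with 10 nt on either side), an exon or an intron of 1 representative transcript per gene. Exons held 1249 PDCD4 cDNAs (425 sites) and 324 IgG cDNAs (114 sites), a log2 ratio of 1.38 (1.20 to 1.56). The same ratio over exons of all other genes was 0.65 (0.63 to 0.66), so that the intervals did not overlap. SnoRNAs held 228 PDCD4 and 23 IgG cDNAs, a log2 ratio of 2.69 (2.12 to 3.43), against 0.55 (0.43 to 0.67) for snoRNAs of all other genes. The pool of other genes mixed snoRNA classes that differed. Box C/D snoRNAs, described below, held 124 PDCD4 and 13 IgG cDNAs in these genes, and 835 and 109 in other genes. Box H/ACA snoRNAs held 104 and 10 in these genes, and 727 and 282 in other genes. A large PDCD4 excess at box C/D snoRNAs was thus found in other genes too. Introns outside snoRNAs held 255 and 143 cDNAs, a log2 ratio of 0.26 whose interval held 0 (-0.03 to 0.57), against -0.38 (-0.39 to -0.37) in introns of other genes, again with no overlap. PDCD4 over IgG was therefore highest at the snoRNAs and next in exons. In introns it was not told apart from 0 at this depth, but it lay above that of other introns.

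**Figure D2:**
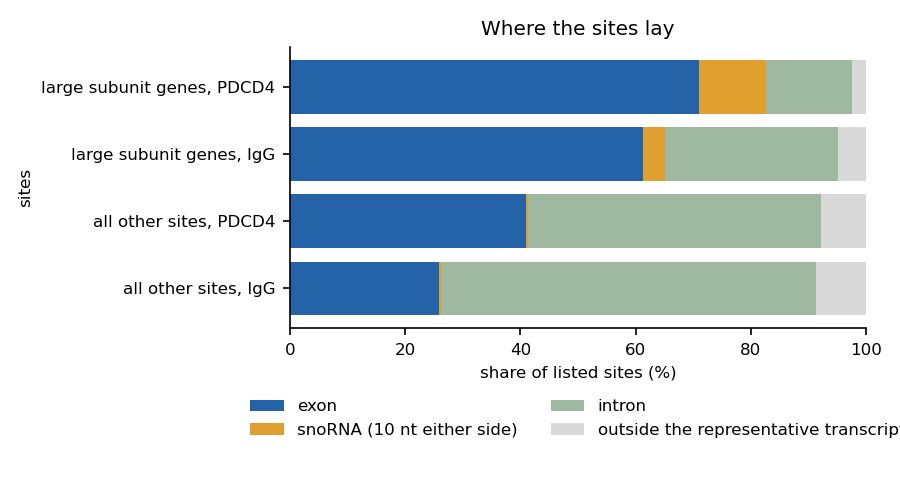
Share of listed sites (%) in exons, at snoRNAs, in introns and outside the representative transcript, for the large subunit genes and for all other sites in each list. Exons take 71.0% of the PDCD4 sites and 61.3% of the IgG sites of the large subunit genes, and snoRNAs take 11.7% and 3.76%.

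The annotation placed 38 named snoRNAs in 18 of the 45 genes. Of these, 22 had a PDCD4 site, in 12 hosts, and 6 had an IgG site. In other genes 151 snoRNAs had a PDCD4 site and 84 an IgG site. Box C/D snoRNAs (SNORD) guide methylation of ribosomal RNA and box H/ACA snoRNAs (SNORA) guide pseudouridylation. SNORA3B in RPL27A had the largest sum, 28 PDCD4 cDNAs at 9 sites, and SNORA3A in the same gene had 16 at 5. No IgG site was listed at either, which sets RPL27A apart from RPL4. In RPL4, SNORD18B had 22 PDCD4 and 3 IgG cDNAs and SNORD18C had 19 and 2. SNORA65 in RPL12 had 19 and 6. SNORA27 in RPL21 had 15, SNORA21 in RPL23 had 13, SNORD36B in RPL7A had 12 and SNORD36C in RPL7A had 11, none of them with an IgG site. As a whole gene, RPL23 had 51 PDCD4 and 11 IgG cDNAs, a log2 ratio of 1.55 (0.69 to 2.73), of which 33 PDCD4 cDNAs were exonic. RPL21 had 26 and 4, a log2 ratio of 1.87 (0.61 to 4.11), and no exonic site, so that 19 of the 26 came from snoRNAs and 7 from introns.

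One place in the snoRNAs held many of the sites. Of the 70 PDCD4 sites, 22 lay on the first base of the snoRNA or the 2 bases before it, and they held 89 of the 228 cDNAs (39.0%, 32.9% to 45.5%). The IgG list had 1 site there, with 3 cDNAs, at the position of SNORD18B printed above. Whether the cDNAs at these places ended at a contact or at the 5′ end of the snoRNA was not tested. Among SNORD sites, 19 of 37 were at the start (51.4%, 35.9% to 66.6%), and among SNORA sites 3 of 33 (9.09%, 3.14% to 23.6%). In other genes 43 of 209 SNORD sites in the PDCD4 list were at the start (20.6%, 15.6% to 26.6%). The share at SNORD starts was thus higher in the large subunit genes than over all other annotated SNORDs, with intervals that did not overlap. Those other SNORDs were not limited to ones in introns of host genes. The letters TGATG, the core of the C box that defines the SNORD class, were searched on the RNA strand in the 30 nt after each site. All 19 SNORD start sites had them, as the position of the C box near the snoRNA start implies. They followed 4 of 89 other intronic sites of these genes (4.49%) and 3.0% of the 80692 intronic PDCD4 sites of other genes.

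**Figure D3:**
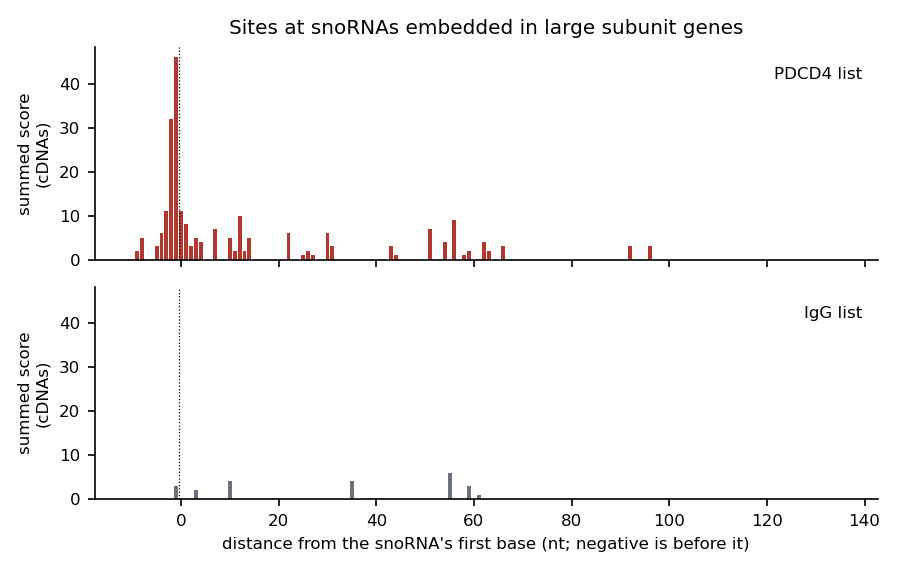
Summed score (cDNAs) by distance from the first base of the embedded snoRNA (nt, negative values before it), PDCD4 list above and IgG list below on the same scale. The PDCD4 sum peaks 1 nt before the snoRNA, at 46 cDNAs, and the IgG list has 3 cDNAs there.

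Introns outside snoRNAs held 89 PDCD4 sites in 32 genes, with a highest score of 6, in intron 3 of RPL4. The largest sum was in intron 3 of RPL35, 17 cDNAs at 5 sites, against 3 cDNAs at 1 site. Intron 3 of RPL28 followed, with 13 cDNAs at 5 sites and no IgG site listed. Of the 89 sites, 58 fell in an exon of some other annotated transcript of the gene.

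Within exons few sites lay near the 3′ end. In internal exons, 10 of 271 PDCD4 sites lay within 60 nt of the 3′ end of the exon (3.69%, 2.02% to 6.66%), although 51.4% of the internal exon positions of these genes do. The density was 1.03 sites per 1000 positions within 60 nt of the end and 28.4 per 1000 further away. The IgG list showed the same gap, with 4 of 55 sites (7.27%, 2.86% to 17.3%). Other genes showed it too, with 5.05% of PDCD4 and 7.48% of IgG sites, where 38.5% of internal exon positions lie that near. No site of these genes lay between 50 and 60 nt in either list, and 27 PDCD4 sites lay between 60 and 70 nt. The gap was therefore common to both lists and all genes, and its source was not tested. It covers more of these genes than of other genes. Their internal exons had a median of 113 nt, against 123 nt in other genes. The first exon had at most 60 nt in 34 of the 45 genes, a count that was not made for other genes. Of their coding positions, 57.2% lay 60 nt or more from the end of the exon, against 69.7% in other genes. In RPL12 this share was 31.3% and in RPL15 80.4%.

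**Figure D4:**
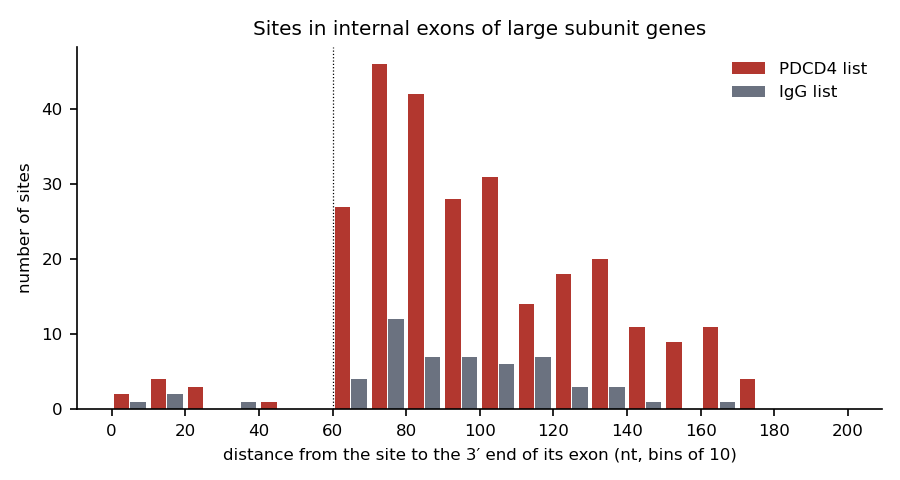
Number of sites in internal exons of the large subunit genes by distance from the site to the 3′ end of the exon (nt, bins of 10), for both lists. In the PDCD4 list 10 of 271 sites lie left of the dotted line at 60 nt.

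Along the coding sequence the PDCD4 sites were spread evenly. With each coding sequence cut into 3 equal parts, the first part held 114 of 362 sites (31.5%), the middle part 122 (33.7%) and the last part 126 (34.8%). The positions 60 nt or more from an exon end were split 30.6%, 32.1% and 37.4%, each within the interval of the sites. The IgG list had 28, 22 and 29 of 79 sites in the same order.

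At the transcript start, within 10 nt of the first annotated base, the PDCD4 list had 7 sites with 24 cDNAs, in RPL5, RPLP1, RPLP2 and RPL38. They were 1.65% of the exonic sites (0.80% to 3.36%), against 0.287% in other genes. The IgG list had 5 sites with 13 cDNAs there, 4.39% of its exonic sites (1.89% to 9.86%), against 0.215% in other genes. Sites on the start of these mRNAs were thus found in both lists, and the other 41 genes had none in the PDCD4 list. Whether these cDNAs ended at a contact or at the 5′ end of the mRNA was not tested.

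The base at the PDCD4 coding sites was U in 32.4% (27.8% to 37.4%) and C in 29.4% (25.0% to 34.3%), where the coding sequences of the 45 genes hold 19.9% U and 24.3% C. In other genes U was found at 34.4% of coding sites. The IgG coding sites of the large subunit genes had U at 29.1% (20.3% to 39.9%), which overlaps the PDCD4 interval. UV cross-linking is known to favour uridine.

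Large subunit genes have many processed pseudogenes, and a read that fits several places cannot be assigned with certainty. The 30 nt after the site occurred once in the genome for 409 of 599 PDCD4 sites (68.3%, 64.4% to 71.9%) and for 132 of 186 IgG sites (71.0%, 64.1% to 77.0%). It occurred once at 69 of 70 snoRNA sites and at 248 of 425 exonic sites (58.4%, 53.6% to 62.9%). With unique sites alone, over unchanged totals of the lists, the log2 ratio of the sums was 1.14. Of the 13451 coding positions 60 nt or more from an exon end, only 4070 (30.3%) were followed by 30 nt found once. The density of PDCD4 sites was 45.9 per 1000 positions on unique sequence and 17.5 on repeated sequence, and that of IgG sites 9.34 and 3.94.

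Some genes had no coding site at all, and these held little unique sequence. RPL7, RPL9, RPL17, RPL21, RPL22, RPL39 and RPL41 had no PDCD4 coding site. In these 7 genes the share of such coding positions with unique sequence lay between 0% and 6.35%, with 0% in 5 of them, while the median over the other 38 genes was 31%. Low shares did not preclude coding sites, since RPL36A, RPL23A and RPL10, with 0%, 3.42% and 4.74%, had 1, 4 and 8 of them. Length differed as well: of the genes with no coding site, RPL41 and RPL39 had only 40 and 90 such positions, while RPL7 had 434. Over the 45 genes the share of unique sequence and the PDCD4 coding sum had a Spearman correlation of 0.50 (Pearson 0.16). The number of such positions and the same sum had a Spearman correlation of 0.44. The part of each was not tested. RPL11 had the highest share, 91.7%, with 41.2 PDCD4 cDNAs per kb of coding sequence, and RPL5 had 35.0% with 184. RPL30 followed RPL5 with 130 per kb, then RPL19 with 95.2, RPL35A with 93.9 and RPL35 with 89.4. The median over the 45 genes was 35.6 PDCD4 and 6.32 IgG cDNAs per kb. The IgG order was partly shared, with a Spearman correlation of 0.67 between the coding sums of the lists over the 45 genes, which share length and sequence.

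**Figure D5:**
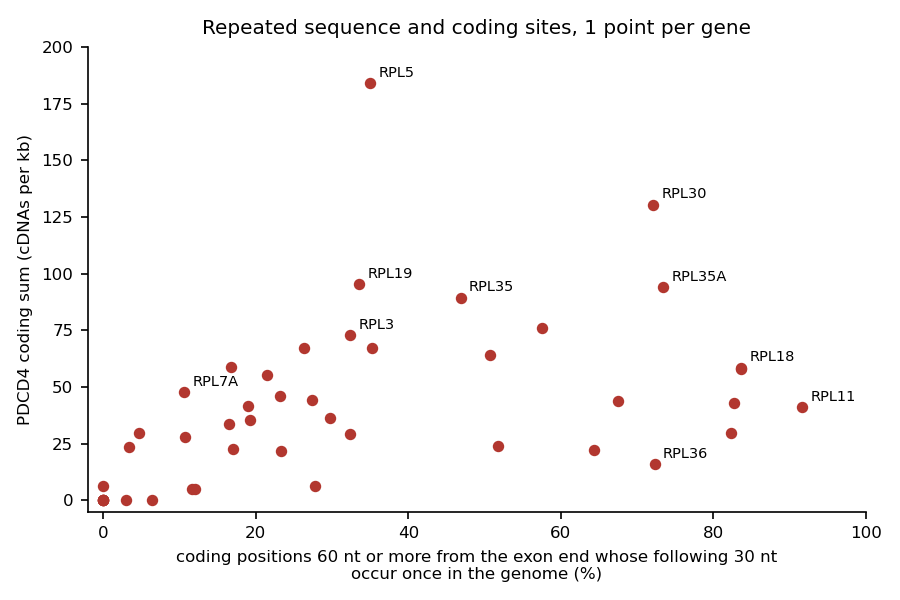
PDCD4 coding sum (cDNAs per kb of coding sequence) against the share of coding positions, 60 nt or more from the exon end, whose following 30 nt occur once in the genome (%), 1 point per gene. The 7 genes with no coding site lie at or below 6.35% on the x axis, and RPL5 stands above all others at 184.

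The methods mention a filter of PDCD4 sites against the IgG control. In the deposited lists, 9 positions in these genes were in both lists, which is 1.5% of the PDCD4 and 4.84% of the IgG sites. Over all genes 721 positions were in both, which is 0.454% of the PDCD4 and 0.647% of the IgG sites. The shared part was thus larger in these genes, and the reason was not tested. At the start of SNORD18B the scores were 15 and 3, and in exon 3 of RPL4 they were 9 and 3. With all shared positions left out, also from the totals, the log2 ratio of the sums was 1.25.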

How the data were processed

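The sites were called by the authors with iCount on reads mapped to the Ensembl human genome (GRCh38), and the 2 replicates of each immunoprecipitation were merged. Each row of the 2 deposited lists gives a position of 1 nt and its cDNA count, with no scaling, and positions that failed the peak step of iCount are left out. The filter on scores above 5 in the methods was not applied in these lists, and all scores were used here. Aligner settings are not given in the sources used here. Sites were matched by exact symbol, a site with several labels counted for each gene, and 99.5% of the gene identifiers were known to GENCODE release 44. Regions were taken on the same strand in the order snoRNA, coding sequence, 3′UTR, 5′UTR, other exon and intron. Copies of the 30 nt after a site were counted on both strands of the 25 assembled chromosomes, the mitochondrial one included. No test was run between the immunoprecipitations.

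The genes named with full values are the 10 with the largest PDCD4 sum, the 5 highest and the 5 lowest by log2 ratio, those with no IgG site, those with a score above 10, and hosts of snoRNAs with at least 10 cDNAs. RPL9, RPL10, RPL11, RPL15, RPL17, RPL23A, RPL28, RPL29, RPL30, RPL39, RPL41 and RPLP2 were named after their values were seen. The genes and lists were chosen with earlier results of these data known. Alternatives were other score minimums, pseudocounts, count minimums and totals, numbers of sites, other annotations, and leaving out shared, repeated or snoRNA sites. Python 3.11.15, numpy 2.4.6, pandas 2.3.3, scipy 1.17.1, pysam 0.24.0 and matplotlib 3.10.9 were used.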

Additional observations from a re-analysis of the deposited data

How the results depend on the processing

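No paired analysis was possible because each list pools its replicates, and for the same reason no replicate could be left out. No alternative turned the direction of a result, and 24 of 41 left the value within the main interval or the count within 1.5 times. The log2 ratio of the sums (1.21) was 1.72 with scores above 5 (242 and 18 cDNAs), 0.75 with exonic sites alone, 1.48 without positions within 5 nt of the other list and 1.01 without the 3 largest genes. Without RPL5 alone, an alternative chosen after seeing the data, it was 1.09. With scores above 5 the median log2 ratio was 1.74 over 9 genes, of which 6 were called, where 52.0% of all genes were. The median over all genes rose as well with this filter, and by more than that of these genes. The distance between the medians was therefore smaller than in the main setting, and the higher value is not a larger excess over all genes. The count of called genes (23) was 15 of 37 with exonic sites (20.5% of all genes) and 14 of 18 with a minimum of 50 cDNAs (13.6% of all genes). With scores above 5, on 32 sites, the coding share was 68.8%, the intron share 6.25% and the share inside snoRNAs 3.12% (7 of the 32 sites with 10 nt added on either side), the share near the exon end was 0% of 18 sites, and the first of 3 equal parts of the coding sequence held 40.9% of 22 sites. The coding share was 35.7% with UTRs before coding sequence, the intron share 19.2% with the representative transcript, the snoRNA share 11.7% with 10 nt added, and the share near the exon end 13.7% at 70 nt. Depth limits single genes: 15 of the 45 had fewer than 20 PDCD4 cDNAs. RNA abundance and the mapping of reads across splice junctions were not analysed here.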

Other observations

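Other genes of the same pathway, from lists chosen with earlier results known, gave lower ratios. Over all genes 18.8% were called and the median log2 ratio was -0.08. Of the small subunit genes, 28 of 32 reached 10 cDNAs, 11 of these were called (39.3%) and the median log2 ratio was 0.63, with sums of 872 PDCD4 and 384 IgG cDNAs (log2 ratio 0.61, 0.44 to 0.79). RPSA, the laminin receptor protein of the small subunit, had 116 and 16 cDNAs, RPS3 had 76 and 26, and RPS9 had 61 and 47. Of 16 other TOP mRNAs, 5 were called (31.2%, against 18.8% of all genes) and the median was 0.21. The translation elongation factor genes EEF2 (402 and 106 cDNAs) and EEF1D (329 and 81) were called, while PABPC1, which encodes the poly(A)-binding protein, was not (232 and 161). Of 26 assembly factors of the large subunit, 23 reached the minimum and 9 were called (39.1%, against 18.8% of all genes), with a median of 0.72. NOC2L, a nucleolar factor of large subunit assembly, had 212 PDCD4 and 6 IgG cDNAs. The intervals of the summed ratio of the large subunit genes and of the small subunit genes did not overlap. With exonic sites alone, 20.5% of all genes were called, with a median of -0.14. The small subunit genes then had 6 of 21 called (28.6%) and a median of 0.21. Of the other TOP mRNAs 1 of 15 was called (6.67%, median -0.09), and of the assembly factors 5 of 19 (26.3%, median -0.19). The exonic log2 ratio of the sums was 0.25 (0.01 to 0.51) for the small subunit genes and 0.14 (-0.01 to 0.30) for the other TOP mRNAs. For the assembly factors it was 0.44 (0.17 to 0.73), and only this interval overlapped that of the large subunit genes (0.57 to 0.93).

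Pseudogenes and paralogs of the large subunit genes, and readthrough genes that include them, were counted under names of their own. Pseudogenes named after them had 34 PDCD4 sites with 91 cDNAs in 18 pseudogenes and 11 IgG sites with 27 cDNAs, led by RPL32P3 (24 and 3 cDNAs) and RPL39P5 (18 and 0). The readthrough gene RPL17-C18orf32 had 28 PDCD4 and 4 IgG cDNAs, and its PDCD4 sum was larger than the 12 labelled RPL17 itself. Sites that bear only the readthrough label were not counted for RPL17, nor among its coding sites. Where they lie on the transcript was not examined. Of 7 paralogs 4 had a site, and RPL7L1 had 21 and 12 cDNAs.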
